A study of Mus musculus with 6 samples.

Results

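Small nucleolar and structural noncoding RNA genes were described in mouse embryonic stem (ES) cells that lack Morc3 and in wild type ES cells. Genes were chosen by symbol (those starting with Snora, Snord, Scarna or Snhg, together with Rmrp, Rpph1, Terc, Rn45s, Malat1 and Neat1) and by a total of at least 30 sense-strand counts over the 6 libraries. Of 137 gene rows with such a symbol, 109 met the count minimum, out of 24054 gene rows in all: 30 Snora, 54 Snord, 7 Scarna and 12 Snhg genes and the 6 other RNAs. The symbol Rn7sk was not analysed here. Just inside the minimum lay Snora47, Snord92 and Scarna8 with totals of 33, 39 and 40 counts, and just outside it Snord23 and Snord42a with 29 each and Snord71 with 21. Of the 28 genes under the minimum, 14 had no count in any library.

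The Morc3 ko group consisted of 3 clones, KO27-1, KO27-2 and KO27-3 (ko 1, 2 and 3), labelled Morc3 knock out. The study's methods describe each as a single clone made by Cas9 cutting from the WT26 line, so the ko libraries stand for 3 clones of 1 parental line. The wild type group consisted of 3 libraries of the WT26 line, titled p42, p43 and p56. What the p number stands for is not given in the labels, and no label ties the wild type libraries to separate clones. The p-values below therefore measure the spread between these 6 libraries, or between those kept where a library was left out. All cells were grown without feeders on gelatin in serum and LIF, and total RNA was depleted of ribosomal RNA before strand-specific, paired-end libraries were made.

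Sense-strand gene counts ranged from 10740618 to 14123131 per library. Morc3, the targeted gene, measured 77.8, 137.9 and 134.6 CPM (counts scaled to library size) in ko 1 to 3 and 276.8, 272.0 and 302.2 CPM in p42, p43 and p56 (log2 fold change -1.28, SE 0.16, edgeR adjusted p = 8.4e-04). ES cell markers summed to 6113 to 6218 CPM in ko and 5588 to 5721 CPM in wild type. Fibroblast markers summed to 7.15 to 8.32 CPM in ko and 11.8 to 12.7 CPM in wild type. Of those 8 fibroblast markers, 6 were under 1 CPM, Postn and Dcn were at 0, and Thy1 fell (log2 fold change -0.86, edgeR adjusted p = 0.0064). Endoderm and mesoderm markers summed to at most 1.81 and 2.68 CPM, neuroectoderm markers to 20.1 to 24.6 CPM, and 5 of 6 2-cell markers were at 0. The wild type library p56 stood apart from p42 and p43. The median of its 421 tested genes on chromosome 14, as a log2 ratio to the mean of p42 and p43, was 0.36, while the same median was -0.09, -0.08 and -0.10 in ko 1, 2 and 3. The small RNA genes were therefore fitted with and without p56.

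Small nucleolar RNAs guide the chemical modification of other RNAs, above all ribosomal RNA. Snord genes encode C/D box RNAs, which carry a C box near the start and a D box near the end and direct methylation of ribose through fibrillarin, encoded by Fbl. Snora genes encode H/ACA box RNAs, which end in an ACA box and direct pseudouridylation through dyskerin, encoded by Dkc1. Scarna genes encode relatives that reside in Cajal bodies and act on spliceosomal RNAs. Most of these RNAs are cut from introns of host genes, and Snhg genes are noncoding hosts whose introns release them. Rmrp and Rpph1 are the RNA subunits of RNase MRP, which cuts precursor ribosomal RNA, and of RNase P, which trims precursor tRNA. Terc is the template RNA of telomerase, Rn45s the long ribosomal RNA precursor, Malat1 an RNA of nuclear speckles and Neat1 the scaffold RNA of paraspeckles.

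The boxes that define the classes were looked for in the annotated transcripts. The sequences of 8 of the most abundant small RNA genes are shown because their levels recur below and because they display these boxes. They are GENCODE M21 transcripts on the GRCm38 assembly, written with T for U. Capitals mark TGATGA in the first 20 bases (the C box) and CTGA in the last 20 bases (the D box) of Snord and Scarna transcripts, and ACA in the last 6 bases of Snora transcripts.
Snord15a: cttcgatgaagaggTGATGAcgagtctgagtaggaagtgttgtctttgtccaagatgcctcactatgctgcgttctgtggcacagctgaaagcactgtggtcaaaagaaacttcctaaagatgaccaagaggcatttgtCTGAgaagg
Snord15b: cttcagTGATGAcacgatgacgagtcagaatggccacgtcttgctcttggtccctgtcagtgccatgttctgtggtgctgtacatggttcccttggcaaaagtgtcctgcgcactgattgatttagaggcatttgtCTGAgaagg
Snord22: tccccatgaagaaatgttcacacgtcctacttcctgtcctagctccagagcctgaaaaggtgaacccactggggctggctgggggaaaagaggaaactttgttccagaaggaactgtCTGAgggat
Snord17: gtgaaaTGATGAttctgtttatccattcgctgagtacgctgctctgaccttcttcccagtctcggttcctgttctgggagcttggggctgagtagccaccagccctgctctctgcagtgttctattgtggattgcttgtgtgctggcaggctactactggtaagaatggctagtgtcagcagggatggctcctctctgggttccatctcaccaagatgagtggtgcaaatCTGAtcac
Snora43: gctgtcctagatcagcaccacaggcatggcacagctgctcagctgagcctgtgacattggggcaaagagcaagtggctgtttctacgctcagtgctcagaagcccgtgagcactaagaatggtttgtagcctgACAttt
Snora52: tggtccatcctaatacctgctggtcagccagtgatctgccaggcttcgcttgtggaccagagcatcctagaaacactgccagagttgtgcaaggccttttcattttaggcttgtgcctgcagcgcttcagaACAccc
Snora78: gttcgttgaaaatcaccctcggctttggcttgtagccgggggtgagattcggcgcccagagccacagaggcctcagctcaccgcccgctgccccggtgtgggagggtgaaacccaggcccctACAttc
Scarna6: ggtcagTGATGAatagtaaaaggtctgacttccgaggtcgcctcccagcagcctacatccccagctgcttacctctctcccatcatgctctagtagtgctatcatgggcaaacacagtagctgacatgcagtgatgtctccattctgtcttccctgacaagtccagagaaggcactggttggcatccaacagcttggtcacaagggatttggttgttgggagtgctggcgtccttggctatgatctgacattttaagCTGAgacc

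These genes lie at chr7:99482785-99482932 (minus strand), chr7:99479563-99479707 (minus), chr19:8725866-8725991 (plus), chr2:144265979-144266216 (minus), chr2:26637847-26637985 (minus), chr7:141448803-141448939 (plus), chr17:24719676-24719803 (minus) and chr1:87784556-87784820 (plus), in the order shown. The CTGA box was found in 52 of 54 Snord transcripts (96.3%), and TGATGA in 33 (61.1%), with both in 31. ACA was found in 27 of 30 Snora transcripts (90%). Searched in the same end windows on the transcript strand of 32851 RefSeq promoters, TGATGA stood in 0.365%, CTGA in 9.94% and ACA in 4.83%. Among the transcripts shown, Snord15a, Snord15b, Snord17 and Scarna6 carry both capitalised boxes, and in Snord22 only the D box letters were found. TGATGA and CTGA share the letters TGA, and the windows do not overlap in transcripts of this length.

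Measured levels of these RNAs differed widely between classes. How well RNAs of each length were retained was not measured, so these levels are not a ranking of amounts in the cells. Per kilobase of annotated exon, Rmrp and Rpph1 measured 44090 and 43340 CPM, against 410 CPM for Malat1, 301 CPM for Terc and 1.81 CPM for Neat1. Median levels per kilobase were 155 CPM over 7 Scarna genes, 97.5 CPM over 30 Snora genes, 48.6 CPM over 54 Snord genes and 27.9 CPM over 11 Snhg genes with an annotated length. These lengths join the exons of all annotated transcripts. For Snhg1 (2969 bases) and Snhg12 (2402 bases) they equal the whole gene span, so levels per kilobase depend on the annotation. The highest Snord level per kilobase was 1799 CPM (Snord15a) and the highest Snora level 1229 CPM (Snora43). Snora transcripts were 127 to 196 bases long and Snord transcripts 64 to 238 bases, with a median of 77.5 bases. The 6 structural and long RNAs took 5.98% to 6.53% of all sense counts in each library.

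The first question was whether any of these genes differed between the clones and the wild type libraries. None was called. Of 109 genes, 102 passed the filter on low counts, and 0 of them reached the threshold of adjusted p under 0.01 by edgeR's quasi-likelihood test, where 156 of all 12222 tested genes (1.28%) did. The smallest adjusted p was 0.0879, for Snora21. DESeq2 also called 0, with Snora21 alone under an adjusted p of 0.05. At an unadjusted p under 0.05 there were 6 genes by edgeR, all higher in ko (Snora21, Rmrp, Snora74a, Snora15, Snora81 and Snord15b), and 5 by DESeq2. Of all tested genes, 6.42% were higher and 7.86% lower in ko at that p. The 7 genes that were not tested (Scarna8, Snhg18, Snora47, Snord66, Snord88a, Snord91a and Snord92) had mean levels of 0.441 to 0.739 CPM.

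Groups that did not overlap were as frequent as among all genes or less so. Every ko library lay above every wild type library for 8 of 102 genes, where 9.67% of all tested genes did so, namely Rmrp, Snora21, Snora28, Snora74a, Snora81, Snord1b, Snord43 and Snord85. Every ko library lay below every wild type library for Rpph1, Snord37, Snord55 and Snord64, against 10.2% of all tested genes.

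Among the structural RNAs, Rmrp had the smallest p. It measured 13750, 13110 and 12760 CPM in ko 1, 2 and 3 and 11890, 11250 and 11580 CPM in p42, p43 and p56. All 3 clones lay above all wild type libraries, with means of 13200 ± 499 and 11570 ± 319 CPM (SD, n = 3). The log2 fold change was 0.19 (SE 0.05, 95% interval 0.08 to 0.30), which missed the threshold (edgeR adjusted p = 0.0905, and 0.058 without p56). Rmrp lies at chr4:43492783-43493063 on the minus strand.

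Rpph1, at chr14:50807449-50807767, measured 12840, 13320 and 12830 CPM in ko 1 to 3 and 13420, 13610 and 16940 CPM in p42, p43 and p56. The ko libraries lay below all wild type libraries, and p56 was the highest of the 6. Its log2 fold change was -0.17 (SE 0.08, edgeR adjusted p = 0.358) and -0.06 (SE 0.06, adjusted p = 0.65) without p56. The gene is on chromosome 14, whose median in p56 is given above. The part of that shift in this result was not tested.

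Rn45s, whose mature products are the target of ribosomal RNA depletion, measured 32980, 31700 and 33600 CPM in ko 1 to 3 and 35850, 36510 and 32870 CPM in p42, p43 and p56. The ko libraries lay below p42 and p43, and p56 lay among them. The log2 fold change was -0.10 (SE 0.06, edgeR adjusted p = 0.475). The efficiency of depletion was not measured apart from this row, and reads that map to several places were not counted.

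Malat1 measured 3139, 2555 and 3135 CPM in ko 1 to 3 and 2635, 3044 and 2684 CPM in p42, p43 and p56, with a log2 fold change of 0.08 (95% interval -0.11 to 0.26). Neat1 measured 38.0, 31.3 and 40.7 CPM in ko and 38.7, 47.9 and 28.9 CPM in wild type, with a log2 fold change of -0.08 (95% interval -0.42 to 0.27). Terc measured 142.6, 113.2 and 118.6 CPM in ko and 125.7, 141.6 and 122.0 CPM in wild type, with a log2 fold change of -0.06 (95% interval -0.26 to 0.14). In all 3 genes the groups overlapped and the intervals spanned 0 (edgeR adjusted p = 0.748, 0.889 and 0.847). The plot of the structural RNAs by library shows these values.

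**Figure D1:**
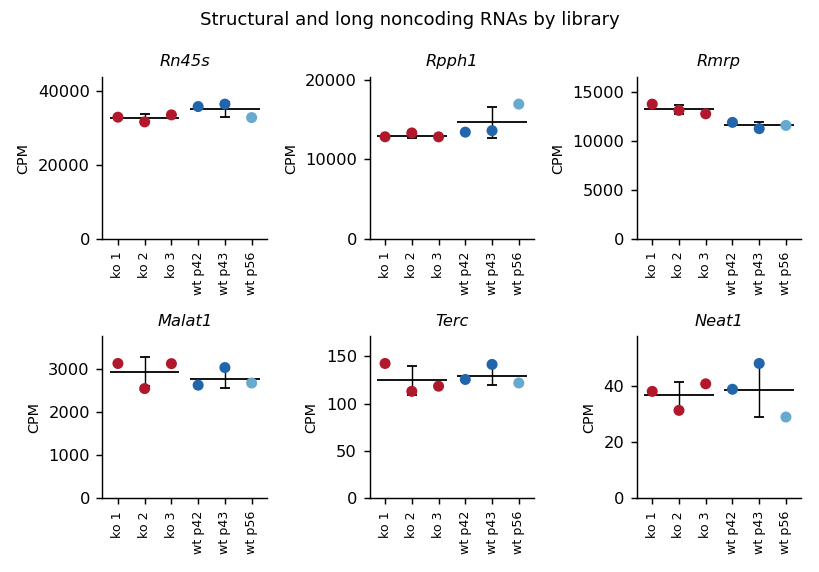
Level in CPM (linear axis from 0) of Rn45s, Rpph1, Rmrp, Malat1, Terc and Neat1 in ko 1 to 3 (red) and wild type p42, p43 (dark blue) and p56 (light blue), with a line at the mean of each group and bars of 1 SD (n = 3). Rmrp is the gene whose ko libraries (12760 to 13750 CPM) all lie above wild type, and p56 is the highest library for Rpph1 (16940 CPM).

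The H/ACA box class as a whole tended to be higher in ko, and p56 shared that level. The median log2 fold change of the 29 tested Snora genes was 0.18, with 27 above 0 and 2 below, beside a median of -0.0001 over all tested genes. It was 0.31 (28 above 0, 1 below) without p56 and 0.10 without p43. Summed Snora levels were 1056, 960.6 and 899.4 CPM in ko 1 to 3 and 754.1, 734.9 and 1008 CPM in p42, p43 and p56. So p42 and p43 were the low libraries, and p56 lay within the ko range. Set against the mean of p42 and p43, the median log2 ratio of the Snora genes was 0.37, 0.35 and 0.28 in ko 1 to 3 and 0.42 in p56, while that of all genes lay between -0.005 and 0.0008 in every library. Of the 29 genes, p56 exceeded both p42 and p43 for 21 (41.1% of all tested genes), and all ko libraries did so for 17 (17.6% of all tested genes). Against p56 itself, all ko libraries lay above it for 8 Snora genes and below it for 9, where 32.1% and 31.5% of all tested genes did. Both ratios share p42 and p43 as the reference, so the ko and p56 values are given side by side and were not correlated.

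The other classes moved less. The median log2 fold change was 0.07 over 50 tested Snord genes (31 above 0, 19 below), 0.13 over 6 Scarna genes (4 and 2), 0.06 over 11 Snhg genes (7 and 4) and -0.07 over the 6 structural and long RNAs (2 and 4). Over all 102 genes it was 0.11, with 71 above 0 and 31 below. Without p56 the medians were 0.07 for Snord, 0.14 for Scarna, 0.05 for Snhg and -0.08 for the structural and long RNAs. With a library left out, the Snord median ranged from 0.02 (without ko 2) to 0.12 (without ko 3). These medians and counts of signs are a description and carry no test.

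**Figure D2:**
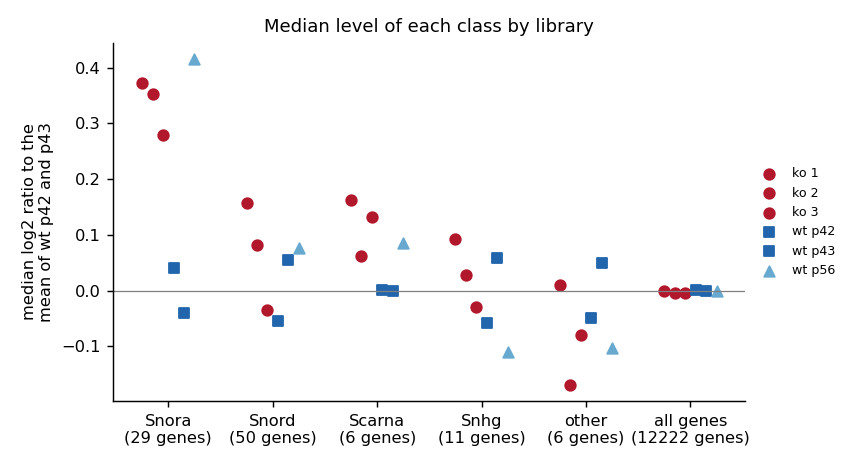
Median over the tested genes of each class of the log2 ratio to the mean of wild type p42 and p43, for ko 1 to 3 (circles, left to right), p42 and p43 (squares) and p56 (triangles), with all 12222 tested genes at the right. For Snora genes the 3 ko libraries (0.28 to 0.37) and p56 (0.42) lie apart from p42 and p43, while all genes together lie near 0.

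Among single H/ACA genes, Snora74a was the most abundant. It measured 282.7, 254.1 and 250.1 CPM in ko 1 to 3 and 171.4, 164.5 and 247.5 CPM in p42, p43 and p56. The clones lay above all wild type libraries, though p56 was close to ko 3. The log2 fold change was 0.43 (SE 0.13, edgeR adjusted p = 0.126), and 0.64 (SE 0.07, adjusted p = 8.8e-07) without p56.

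Snora21, which lies in an intron of the ribosomal protein gene Rpl23, measured 23.8, 24.7 and 21.3 CPM in ko 1 to 3 and 14.1, 12.4 and 20.3 CPM in p42, p43 and p56. Here too the groups did not overlap and p56 was the highest wild type library. The log2 fold change was 0.58 (SE 0.16, edgeR adjusted p = 0.0879), and 0.82 (SE 0.11, adjusted p = 4.8e-05) without p56. Snora15, whose span overlaps an annotated exon of the chaperonin gene Cct6a, measured 10.7, 14.9 and 13.6 CPM in ko and 6.37, 6.02 and 11.6 CPM in wild type. Its lowest clone lay under p56, and the gene missed the threshold (log2 fold change 0.72, SE 0.23, edgeR adjusted p = 0.148). Snora81, in Eif4a2, measured 19.0, 18.5 and 18.3 CPM in ko and 14.1, 16.0 and 16.6 CPM in wild type, without overlap (log2 fold change 0.26, SE 0.10, edgeR adjusted p = 0.273). Without p56 the log2 fold change of Snora15 was 1.08 (SE 0.16, edgeR adjusted p = 8.5e-05) and that of Snora81 was 0.31 (SE 0.11, adjusted p = 0.116).

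The other abundant Snora genes overlapped between the groups, and their values moved with single libraries. Snora43 measured 192.7, 170.6 and 159.7 CPM in ko and 152.2, 159.8 and 189.6 CPM in wild type (log2 fold change 0.06, SE 0.09). Snora52 measured 92.8, 67.1 and 66.7 CPM in ko and 69.5, 69.1 and 76.3 CPM in wild type (0.08, SE 0.12). Snora78 measured 65.9, 57.1 and 43.7 CPM in ko and 43.5, 45.1 and 63.3 CPM in wild type (0.14, SE 0.16). In all 3, ko 1 was the highest library. Without p56 their log2 fold changes were 0.16 (SE 0.07), 0.12 (SE 0.10) and 0.33 (SE 0.11), and the edgeR adjusted p-values were 0.228, 0.56 and 0.0908. Without ko 1 they were -0.01, -0.09 and 0.001.

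Of the abundant C/D box genes, Snord15a and Snord15b both come from Rps3, the gene of a ribosomal protein. Snord15a measured 313.9, 269.6 and 236.8 CPM in ko and 248.0, 250.4 and 279.0 CPM in wild type (log2 fold change 0.08, SE 0.09). Snord15b measured 222.5, 205.7 and 159.8 CPM in ko and 153.0, 142.1 and 189.8 CPM in wild type (0.28, SE 0.12, edgeR adjusted p = 0.335). Both overlapped between the groups, and in both ko 1 was the highest library. Without p56 the log2 fold changes were 0.14 (SE 0.08) and 0.41 (SE 0.09), at edgeR adjusted p-values of 0.401 and 0.00885.

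Snord17, in an intron of Snx5, measured 187.8, 194.0 and 198.9 CPM in ko and 131.9, 136.6 and 207.9 CPM in wild type (log2 fold change 0.29, SE 0.14, edgeR adjusted p = 0.384). Snord22, in the noncoding host Snhg1, measured 148.7, 160.1 and 134.9 CPM in ko and 105.1, 87.9 and 180.7 CPM in wild type (0.25, SE 0.20, edgeR adjusted p = 0.656). In both genes p42 and p43 lay below every clone and p56 lay above every clone. Snord17 reached 0.53 (SE 0.06, edgeR adjusted p = 5.9e-06) without p56 and 0.17 without p42. Snord22 reached 0.62 (SE 0.08, edgeR adjusted p = 2.3e-05) without p56 and 0.05 without p43.

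The C/D box genes that were lower in ko with the smallest p were rare transcripts. Snord64 measured 2.96, 2.65 and 2.18 CPM in ko and 4.49, 3.22 and 3.24 CPM in wild type, without overlap (log2 fold change -0.49, SE 0.23, edgeR adjusted p = 0.352). Snord37, in an intron of the elongation factor gene Eef2, measured 0.832, 1.15 and 0.363 CPM in ko and 1.16, 1.54 and 1.24 CPM in wild type (-0.74, SE 0.39, edgeR adjusted p = 0.431). Snord111 measured 1.11, 1.24 and 0.635 CPM in ko and 1.59, 1.05 and 1.85 CPM in wild type (-0.58, SE 0.35, edgeR adjusted p = 0.519). Their totals over 6 libraries were 236, 80 and 94 counts, so their folds are imprecise. Without p56 they were -0.57, -0.78 and -0.40.

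Cajal body genes gave a mixed picture. Scarna6, in an intron of the autophagy gene Atg16l1, measured 248.4, 309.1 and 279.5 CPM in ko and 207.9, 198.1 and 290.8 CPM in wild type (log2 fold change 0.27, SE 0.13, edgeR adjusted p = 0.385). Scarna10, in the condensin gene Ncapd2, measured 127.5, 146.3 and 135.5 CPM in ko and 117.5, 100.5 and 137.3 CPM in wild type (0.21, SE 0.10, edgeR adjusted p = 0.395). For both, p56 lay within the range of the clones, and without it Scarna6 stood at 0.46 (SE 0.08, edgeR adjusted p = 3.5e-04) and Scarna10 at 0.33 (SE 0.08, adjusted p = 0.00975). Scarna2 (67.5, 63.9 and 59.6 CPM in ko, 68.1, 64.4 and 61.9 CPM in wild type) and Scarna13 (66.1, 50.9 and 47.3 CPM in ko, 56.8, 67.5 and 52.1 CPM in wild type) overlapped between the groups, the former at a log2 fold change of -0.03 (SE 0.07) and the latter at -0.11 (SE 0.13). Without p56 these were -0.06 and -0.18.

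The noncoding host genes were close to even. Snhg1 measured 245.5, 257.2 and 239.5 CPM in ko and 235.0, 254.3 and 223.8 CPM in wild type (log2 fold change 0.06, SE 0.07). Snhg5 measured 167.7, 191.0 and 184.0 CPM in ko and 149.0, 162.4 and 191.6 CPM in wild type (0.11, SE 0.09, and 0.22, SE 0.07, edgeR adjusted p = 0.0672 without p56). Snhg6 ranged from 71.3 to 77.2 CPM over the 6 libraries (-0.02, SE 0.07) and Snhg12 from 62.5 to 73.4 CPM (-0.08, SE 0.07). The groups overlapped in all 4 genes, and the log2 fold changes of the 11 tested Snhg genes ranged from -0.19 to 0.45, the highest being that of Snhg9 at a mean of 0.813 CPM.

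Leaving out p56 changed the count of called genes. Without it, the clones were set against p42 and p43 alone, so the wild type spread in that fit is the difference between these libraries. Over all genes 385 were then called, against 156 with all libraries. Of the 103 small RNA and structural genes then tested, 12 rose in ko and none fell at an edgeR adjusted p under 0.01. Among all 12315 genes then tested, 1.97% were called higher and 1.15% lower. The 12 were Snora74a, Snora21, Snora15, Snora64, Snora17, Snora70, Snora44, Snord17, Snord22, Snord15b, Scarna6 and Scarna10, with log2 fold changes of 0.33 (Scarna10) to 1.08 (Snora15). In all 12, p56 lay above both p42 and p43 (41.1% of all tested genes), and in 10 it was at or above the lowest clone. These genes were called without p56 and not with it, so a p56 nearer the clones follows in part from that choice. With all libraries the same genes had adjusted p-values from 0.0879 to 0.698. DESeq2 without p56, an alternative chosen after seeing the data, called 7 genes, all higher and all among the 12. Without any other single library 0 genes were called. The count therefore rests on the inclusion of p56. None of the 12 genes lies on chromosome 14, and what sets p56 apart from p42 and p43 in these genes was not tested.

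The genes of this list that had not been described yet came from the same choice, and their values follow. Snora64 measured 19.4, 21.7 and 17.9 CPM in ko 1 to 3 and 12.2, 11.4 and 23.8 CPM in p42, p43 and p56. Snora17 measured 31.1, 33.7 and 32.0 CPM in ko and 24.3, 23.3 and 36.0 CPM in wild type. Snora44 measured 45.3, 35.1 and 30.9 CPM in ko and 28.5, 20.4 and 41.1 CPM in wild type. For these 3, p42 and p43 were the lowest libraries, and p56 was above every clone for the former pair. Snora70 measured 15.2, 14.6 and 14.4 CPM in ko and 10.7, 8.96 and 18.1 CPM in wild type, again with p56 the highest. Snora44, Snora16a and Snora61 share the host Snhg12, and Snora43 and Snora17 both lie inside the RefSeq span of Snhg7, so these genes are not independent of each other.

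**Figure D3:**
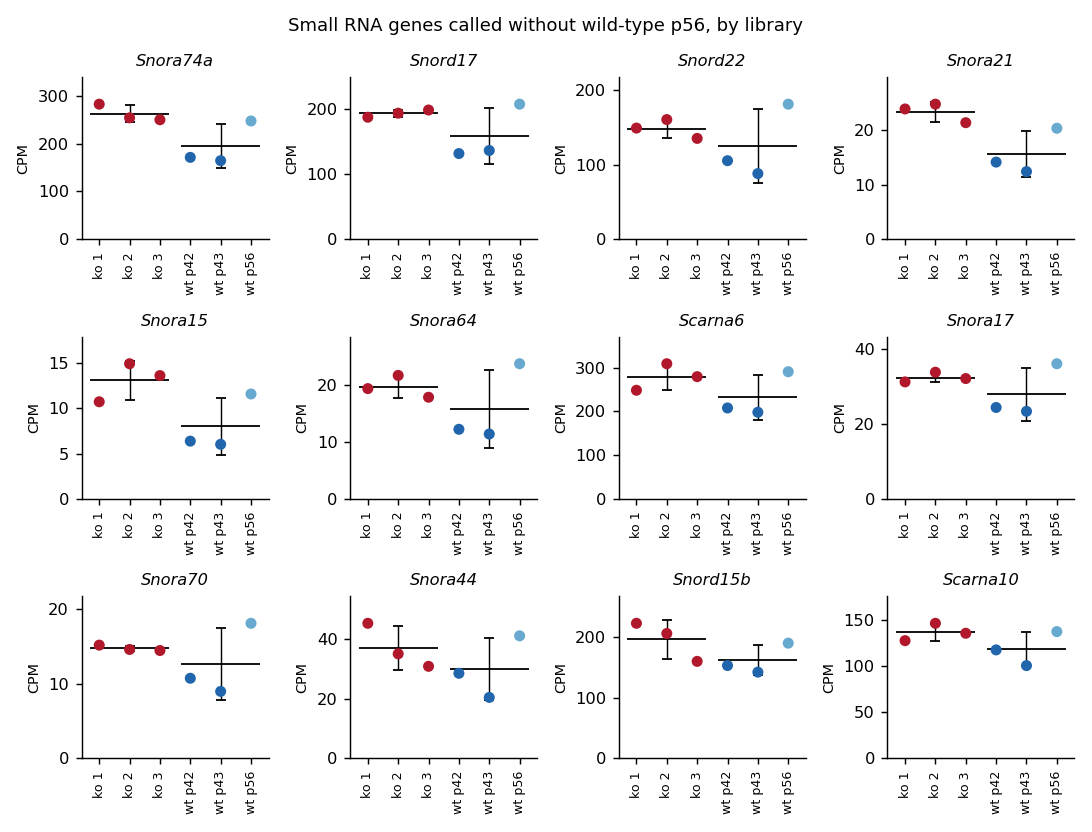
Level in CPM (linear axes from 0) of the 12 genes called without p56, in ko 1 to 3 (red), wild type p42 and p43 (dark blue) and p56 (light blue), with a line at the mean of each group and bars of 1 SD (n = 3, p56 included). In each of the 12 genes p56 lies above p42 and p43 and widens the wild type bar, which the choice of genes favours.

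By GENCODE length, all of these calls fell on longer small RNA genes. The 12 each have a GENCODE length of 126 bases or more. For some genes that count as longer here, RefSeq gives shorter spans, among them Scarna10 (71 bases), Snord43 (48) and Scarna2 (61). Which annotation the read counts used is not stated, so the split below depends on the choice of GENCODE. A border of 100 bases, set after the values were seen, split the Snora, Snord and Scarna genes into 42 of 100 bases or more and 49 shorter ones. The 40 tested longer genes had a median log2 fold change of 0.19 (36 above 0, 4 below), and 0.32 without p56. The 45 tested shorter genes had a median of 0.04 (26 above 0, 19 below), and without p56 the 46 then tested had a median of 0.04 (27 above 0, 19 below). Within the Snord class alone, the 7 longer genes had a median of 0.25 (0.41 without p56), and the 43 tested shorter ones 0.04. The longer genes summed to 2457, 2378 and 2171 CPM in ko 1 to 3 and 1858, 1800 and 2425 CPM in p42, p43 and p56. The shorter genes summed to 232, 236.5 and 211.8 CPM in ko and 209.1, 225.2 and 224.4 CPM in wild type. Among the longer genes p56 again stood with the clones, and among the shorter ones the 6 libraries did not separate. Length goes with class and with level here, and which of these the difference follows was not tested. How well each length was retained by extraction and library preparation was not measured.

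**Figure D4:**
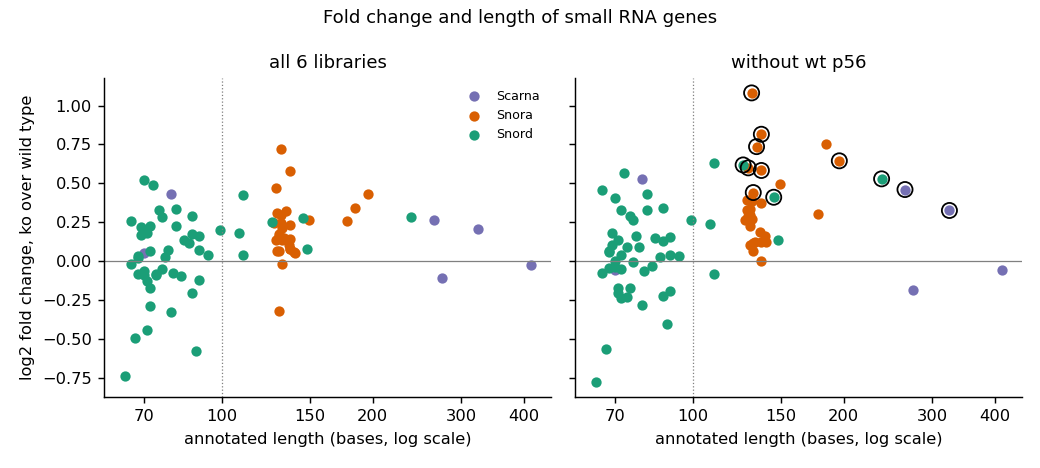
Log2 fold change (ko over wild type) of each tested small RNA gene against its GENCODE length in bases (log axis), with all 6 libraries (left) and without p56 (right). Circles mark the genes called at an edgeR adjusted p under 0.01 and the dotted line marks 100 bases. All 12 circled genes are right of the line and above 0, and no gene is circled with all 6 libraries.

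Because small RNA genes of introns can share reads with unspliced host RNA, small RNA genes were set beside hosts where these could be matched. Of 91 Snora, Snord and Scarna genes, 78 lie on the strand and within the GENCODE span of another gene that the count tables list under the same symbol, 41 in an intron and 37 over an annotated exon of at least 1 transcript. For the latter the counting could not always separate the small RNA from its host, and their counts are uncertain. Among the genes called without p56, this holds for Snora15, Snora44, Snora64, Snora70, Snord15b, Snord22 and Scarna10. For Snora74a and Snora17, which had no host matched in this way, exon overlap was not checked. In 72 pairs with both members tested (55 hosts), the median log2 fold change was 0.14 for the small RNA genes and 0.03 for the hosts, which ranged from -0.24 to 0.45, and 0 hosts were called. The small RNA gene had the higher fold change in 46 pairs. Across pairs, which share hosts and libraries, Spearman's rho was 0.33. Of the 13 genes with no such host, 3 lie inside the RefSeq span of a listed gene (that table gives no strand) and 10 do not. Snora74a lies in Snhg4, and had a log2 fold change of 0.43 beside 0.15 for Snhg4 (0.64 beside 0.11 without p56). Snora17 and Snora43, with 0.22 and 0.06, lie in Snhg7 with 0.10 (0.44 and 0.16 beside 0.05 without p56). These 3 are not among the 72 pairs.

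In the 10 pairs whose small RNA gene had the largest log2 fold change in size (0.34 to 0.74), the hosts lay between -0.11 and 0.17, and 8 of the 10 had the same sign as the small RNA gene. Picking pairs by the size of the small RNA change makes the hosts look smaller in part by that choice. Mean levels of these small RNA genes ran from 0.917 CPM (Snord82) to 19.45 CPM (Snora21), and the folds of the rare ones are imprecise. Eef2 had 0.03 beside -0.74 for Snord37, Cct6a 0.04 beside 0.72 for Snora15 and Rpl23 0.07 beside 0.58 for Snora21. Sf3b3, a splicing factor gene, had -0.11 beside -0.58 for Snord111. Among the other hosts, Snx5 had -0.01 beside 0.29 for Snord17, Snhg12 -0.08 beside 0.31 for Snora44, and Snhg9 0.45 beside 0.14 for Snora78. Tpt1, the host of Snora31, had -0.24 beside -0.32, and both lie on chromosome 14 (-0.13 beside 0.23 without p56). Hosts at an edgeR adjusted p below 0.05 were Eif4a2 and 2410002F23Rik, where 2.71% of all tested genes were. Eif4a2, a translation initiation factor gene and the host of Snora81 and Snord2, had means of 835.8 CPM in ko and 674.6 CPM in wild type (log2 fold change 0.31, edgeR adjusted p = 0.0201), beside 0.26 for Snora81 and 0.17 for Snord2. 2410002F23Rik had 0.32 (edgeR adjusted p = 0.0353) beside 0.07 for Snord88c. Without p56, 2 of 56 hosts were called, Eif4a2 (0.36, edgeR adjusted p = 4.6e-04) and 2410002F23Rik (0.32), where 3.13% of all genes then tested were, and the median over the hosts was 0.02. The 12 small RNA genes called in that fit did not include any from these hosts.

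**Figure D5:**
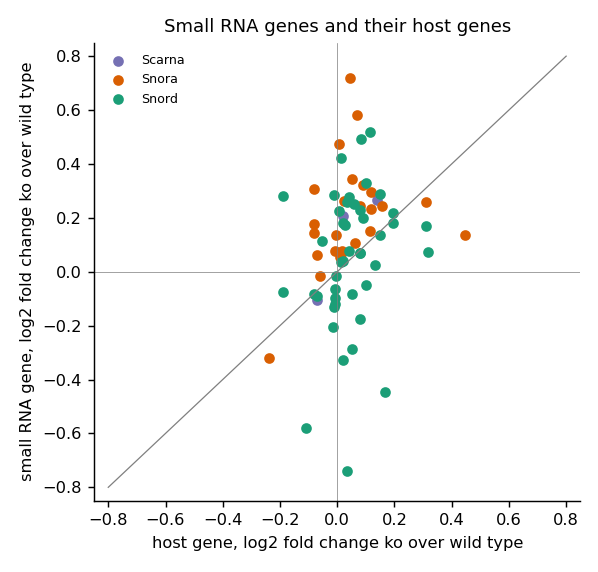
Log2 fold change (ko over wild type, 6 libraries) of each small RNA gene against that of its host gene on the same strand, for 72 pairs, with the diagonal of equal change. Hosts lie between -0.24 and 0.45, and 46 of the 72 small RNA genes lie above the diagonal.

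Proteins that make, bind or turn over these RNAs were compared from lists for C/D box, H/ACA box, Cajal body and telomerase, RNase P and MRP, Rn7sk particle, RNA polymerase I and III, paraspeckle and speckle, nonsense-mediated decay and nuclear exosome factors. Of their 95 genes, all were tested and 0 were called by edgeR, with 11 at an unadjusted p under 0.05, where 14.3% of all tested genes were. The median log2 fold change was 0.06, with 75 above 0 and 20 below, and the medians of the 10 lists ranged from 0.02 to 0.09. Of those below 0, Nufip1, Tep1, Rpp14, Polr3a, Polr3d, Pspc1 and Dis3 lie on chromosome 14, and p56 was the highest library for each. Their log2 fold changes ran from -0.50 (Tep1) to -0.15 (Pspc1), and without p56 from -0.39 (Tep1) to 0.01 (Dis3). The part of the chromosome 14 shift in these values was not tested. No gene of these lists was called without p56 either. In the C/D box list (11 genes, 8 above 0), Fbl, the methyltransferase, had a log2 fold change of -0.02 (SE 0.09). Its partners Nop56 and Nop58 had 0.05 (SE 0.06) and 0.15 (SE 0.07, edgeR adjusted p = 0.331).

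In the H/ACA box list (8 genes, 7 above 0), Dkc1, the pseudouridine synthase, measured 386.7, 447.7 and 458.1 CPM in ko and 406.6, 390.6 and 428.8 CPM in wild type (log2 fold change 0.08, SE 0.07). Gar1, another protein of the H/ACA particle, had -0.003 (SE 0.11). Tert, the telomerase protein that works with Terc, had 0.01 (SE 0.11) at 12.5 to 14.8 CPM. Pop1, shared by RNase P and RNase MRP, had 0.04 (SE 0.07), and Nono, a paraspeckle protein that binds Neat1, had 0.04 (SE 0.06).

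Larp7, which binds the Rn7sk RNA, measured 110.2, 133.8 and 122.6 CPM in ko and 101.6, 100.2 and 110.1 CPM in wild type (log2 fold change 0.23, SE 0.08, edgeR adjusted p = 0.184). At an adjusted p below 0.05, a looser limit, there were 3 of the 95 genes, beside 2.71% of all tested genes, and they were named after their values were seen. Tep1, a telomerase-associated protein, measured 20.8, 19.2 and 20.2 CPM in ko and 25.6, 27.1 and 32.3 CPM in wild type (log2 fold change -0.50, SE 0.11, edgeR adjusted p = 0.0291). Rpp25, a subunit of RNase P and RNase MRP, measured 39.6, 43.2 and 45.2 CPM in ko and 34.2, 34.1 and 32.0 CPM in wild type (0.35, SE 0.08, edgeR adjusted p = 0.0443). Snapc3, a subunit of the complex that starts transcription of small nuclear RNA genes, measured 43.9, 49.4 and 47.8 CPM in ko and 38.0, 37.6 and 36.3 CPM in wild type (0.33, SE 0.08, edgeR adjusted p = 0.043). In all 3 the groups did not overlap, and none reached the threshold of 0.01. Tep1 lies on chromosome 14, p56 was its highest library, and without p56 its log2 fold change was -0.39 (SE 0.10, edgeR adjusted p = 0.0155).

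Opposite-strand counts of these genes were few. Over the 6 libraries, 69 of 109 genes had none and 8 had 10 or more. Only 4 (Malat1, Rmrp, Rn45s and Rpph1) passed the filter when the opposite-strand counts were tested with their own library sizes, and Rmrp was called, where 0.508% of the 1378 genes tested on that strand were. DESeq2, run without that filter, did not call it (unadjusted p = 0.00176, adjusted p = 0.983), and edgeR did not without ko 3, p43 or p56.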

How the data were processed

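Strand-specific, paired-end RNA-seq libraries of 3 Morc3 ko clones and 3 wild type cultures were used. The authors aligned reads to mm10 with STAR and deposited its read counts per gene, without strand and for each strand. Which annotation they counted on is not stated in these sources. STAR counts uniquely mapped reads that overlap 1 gene. Multimapping reads (16.3% to 17.4%) and ambiguous reads (0.469% to 0.495%, as a percent of the sum of sense gene counts and unassigned reads) were thus left out, which affects gene copies. The fourth column was the sense strand.

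Sense counts were tested with edgeR 4.0.16 in R 4.3.3 (TMM, filterByExpr with a minimum count of 10, quasi-likelihood F test, two-sided, group only), with Benjamini-Hochberg adjustment over 12222 genes and a threshold of 0.01. CPM used TMM-scaled library sizes, and SE is the size of the log2 fold change over the square root of F. DESeq2 1.42.0 was an alternative. The test was tried on simulated data first, with changes larger than most of those seen here, so its power to call these genes was not measured. Intervals are 95% confidence intervals of the log2 fold change between groups and rest on the spread between libraries. Other alternatives were no filter, a wider threshold, and each replicate left out. Lengths, hosts and sequences came from GENCODE M21, with 107 of 109 symbols matched, and the promoters from RefSeq.

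Members and gene lists were chosen with earlier results of these data known. Named genes are the 6 structural and long RNAs, the 4 most abundant genes of each class, the 5 smallest unadjusted p in each direction, core pathway proteins and hosts. The genes called without p56 were added after their values were seen.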

Additional observations from a re-analysis of the deposited data

Results flagged for a closer look

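Opposite-strand counts are data outside the main comparison, and Rmrp was the single one of the 4 tested genes to pass the threshold there. Its opposite-strand counts, not scaled to library size, were 283, 323 and 354 in ko 1, 2 and 3. In p42, p43 and p56 they were 341, 200 and 216. Opposite-strand counts of all genes were 136615, 148281 and 141556 in ko 1 to 3. They were 170848, 172743 and 164494 in p42, p43 and p56. The wild type libraries were thus deeper, so the raw counts do not show whether p42 overlapped the clones. Within the wild type group, p43 and p56 (200 and 216) lay well below p42 (341). The log2 fold change was 0.61 (SE 0.13, edgeR adjusted p = 0.00202). DESeq2 gave an unadjusted p of 0.00176 and an adjusted p of 0.983. It was run without the filter that left 1378 genes for edgeR, so the 2 adjusted values cover different gene sets. The edgeR call was lost without ko 3, p43 or p56. Opposite-strand counts were 0.188% of the sense counts of Rmrp. Ccdc107 overlaps Rmrp on the plus strand and spans chr4:43492900-43495921, so reads of that gene and opposite-strand reads of Rmrp share this window, and their parts were not tested.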

How the results depend on the processing

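The library p56 changed the main count. With each library left out in turn, 0 to 12 genes were called, 12 without p56 and 0 without any other. DESeq2 without p56 called 7. For pathway genes, 1 gene (Tep1) was called with no filter on low counts and 3 at an adjusted p under 0.05. The opposite-strand count was 0 by DESeq2 and 0 to 1 with a library left out. With a library left out the Snora median was 0.10 to 0.31 and the Snord median 0.02 to 0.12. The Scarna median was 0.058 by DESeq2, 0.048 with no filter and 0.064 to 0.146 with a library left out, and the median of the structural and long RNAs was -0.099 to 0.062. Signs turned when 1 library was left out for Neat1 (-0.243 to 0.113), Terc (-0.160 to 0.0103), Snora43 (-0.0128 to 0.162), Snora52 (-0.0942 to 0.161), Snord15a (-0.0290 to 0.174), Scarna2 (-0.0653 to 0.0230), Scarna13 (-0.258 to 0.00644) and Snhg6 (-0.0488 to 0.00909), none of them called. Of 391 recomputed values of named genes, 372 kept direction and side of the threshold, 8 passed it without p56 and 11 changed sign. No paired analysis was possible because the ko and wild type titles share no replicate numbers. Genes near the minimum of 30 counts were too shallow to test.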
